A study of Mus musculus with 12 samples.

Results

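Expression of 8 genes of Schwann cells and their myelin was followed in ankle joints of mice with and without arthritis. The genes were Mbp, Pmp2, Prx, Mag, Sox10, Egr2, Cldn19 and Mal. Each gene was taken as the array feature annotated with its symbol alone, and where a symbol had several features the one with the highest mean over the 12 arrays was taken. Of the 8 genes, 7 had such a feature, each of them exactly 1, and all 7 were among the features tested, which were drawn from the 28853 on the array by signal and annotation. Prx, the gene of periaxin, was not analysed here.

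Expression was measured in the ankle joints of 12 C57BL/6 mice, 3 in each of 4 groups, with the Affymetrix Mouse Gene 1.0 ST array, and each array held the RNA of 1 mouse. The groups were arthritic and control mice of the Mmp8-/- genotype, and arthritic and control mice of the Mmp8+/+ genotype. Mmp8-/- mice lack the neutrophil collagenase MMP-8 in all cells and were backcrossed to C57BL/6. Arthritis was induced at 6 to 8 weeks of age with 150 µl of K/BxN serum, given on day 0 and repeated on day 2, and joints were collected on day 7. Control mice had no arthritis, and the study's description gives all 12 mice as male. The deposited values are log2 signals after robust multichip averaging (RMA), which hold no detection call, so a low value cannot be told apart from background and levels were compared between mice for 1 gene at a time, not between genes.

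Schwann cells are the glia of peripheral nerves. The myelinating kind wraps 1 axon segment in compacted membrane built from a small set of proteins and glycolipids, and the non-myelinating kind ensheathes thin fibres, among them the pain fibres that supply the joint. SOX10 keeps cells in the Schwann lineage, and it acts with EGR2 to switch on the genes of myelin. After nerve injury Schwann cells lower these genes and express growth factors and adhesion molecules in their place.

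The labels were checked first. Mmp8 read 4.64 to 5.54 log2 units on 5 arrays labelled Mmp8-/-, 10.65 on the array labelled Mmp8-/- control 2, and 10.21 to 11.16 on the 6 Mmp8+/+ arrays. The array labelled Mmp8-/- control 2 thus went against its label, and every comparison with the arrays labelled Mmp8-/- control draws on it. Xist, the RNA that silences an X chromosome in female cells, read 10.92 on the array labelled Mmp8-/- control 1 and 10.42 on Mmp8+/+ control 1, against 4.66 to 5.41 on the other 10 arrays. These 2 arrays thus went against the description of all mice as male. Both are control arrays and no arthritic array had Xist signal, so that by Xist sex was not balanced between arthritic and control arrays. The median signal of an array lay between 6.74 and 6.82.

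Promoter windows in RefSeq (GRCm38.p6) were searched for 5 of the 8 genes, and not for Mbp, Pmp2 and Sox10. There were 12 such windows of 300 bases, reaching from 250 bases before a transcription start to 50 after it. Those of Mal and Cldn19, genes that were lower in arthritic joints of both genotypes, and of Mag, whose window held the single kind of motif match found, are shown in the direction of transcription. The capitals in Mag mark ACAAAG, a core recognised by SOX proteins, read on the opposite strand. The windows are chr2:127656646-127656945 on the minus strand for Mal, chr4:119255191-119255490 on the plus strand for Cldn19 and chr7:30914814-30915113 on the minus strand for Mag.
Mal: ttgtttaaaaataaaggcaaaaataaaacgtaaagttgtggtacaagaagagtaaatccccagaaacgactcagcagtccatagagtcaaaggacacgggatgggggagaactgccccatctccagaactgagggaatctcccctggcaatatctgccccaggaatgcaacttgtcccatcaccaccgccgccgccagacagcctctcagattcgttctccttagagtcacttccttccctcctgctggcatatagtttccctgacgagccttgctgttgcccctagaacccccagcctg
Cldn19: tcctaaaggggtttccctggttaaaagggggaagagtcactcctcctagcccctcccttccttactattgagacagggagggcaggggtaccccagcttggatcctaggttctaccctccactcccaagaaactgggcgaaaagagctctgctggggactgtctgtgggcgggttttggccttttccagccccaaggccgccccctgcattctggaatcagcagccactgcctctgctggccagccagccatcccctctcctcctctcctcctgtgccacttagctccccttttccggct
Mag: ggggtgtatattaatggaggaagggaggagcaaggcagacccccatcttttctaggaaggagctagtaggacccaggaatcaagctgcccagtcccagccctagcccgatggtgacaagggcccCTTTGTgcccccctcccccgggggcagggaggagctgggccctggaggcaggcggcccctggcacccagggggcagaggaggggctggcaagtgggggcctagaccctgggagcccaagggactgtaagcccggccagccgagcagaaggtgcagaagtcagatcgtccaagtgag
Searched on both strands, ACAAAG was present in 18.7% of all 32851 promoter windows, AACAAT in 10.7%, ACAATG in 12.6%, and at least 1 of these SOX cores in 33.2%, where AACAAT and ACAATG can overlap by 5 letters. The EGR family motif GCGNGGGCG was present in 5.55%. Among the 12 windows of the 5 genes searched, 2 overlapping windows of Mag held ACAAAG, and no other searched motif was found. This says only that these letters are absent from these stretches. The printed windows had a GC content of 51% for Mal, 59.3% for Cldn19 and 65% for Mag, against a median of 52.7% over all windows.

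Of the 7 measured members, 4 were lower in arthritic joints of both genotypes. These were Mal, Pmp2, Mbp and Cldn19, all structural or junctional components of the myelin sheath. Mag, Sox10 and Egr2 did not pass the test. In Mmp8-/- mice, 4 of 7 members were lower and 0 higher, where 13.5% of all tested features were lower and 8.05% higher at a false discovery rate (FDR) of 5% with limma. In Mmp8+/+ mice, 4 of 7 were lower and 0 higher, against 11.5% lower and 7.30% higher of all tested features. The median log2 difference of the 7 members was -0.88 in Mmp8-/- and -0.82 in Mmp8+/+ mice, against 0.01 and 0.02 over all tested features of the same comparisons. With both genotypes averaged, 4 of 7 were again lower and 0 higher, against 22.1% lower and 19.8% higher of all tested features. The members were chosen with earlier results of these data known, so these shares and medians are a description and not a test of the set. Overlap of arthritic and control mice is described gene by gene, and the share of all features without overlap is not given. In RNA from a whole joint, fewer Schwann cells and less of a transcript per Schwann cell cannot be told apart.

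**Figure D1:**
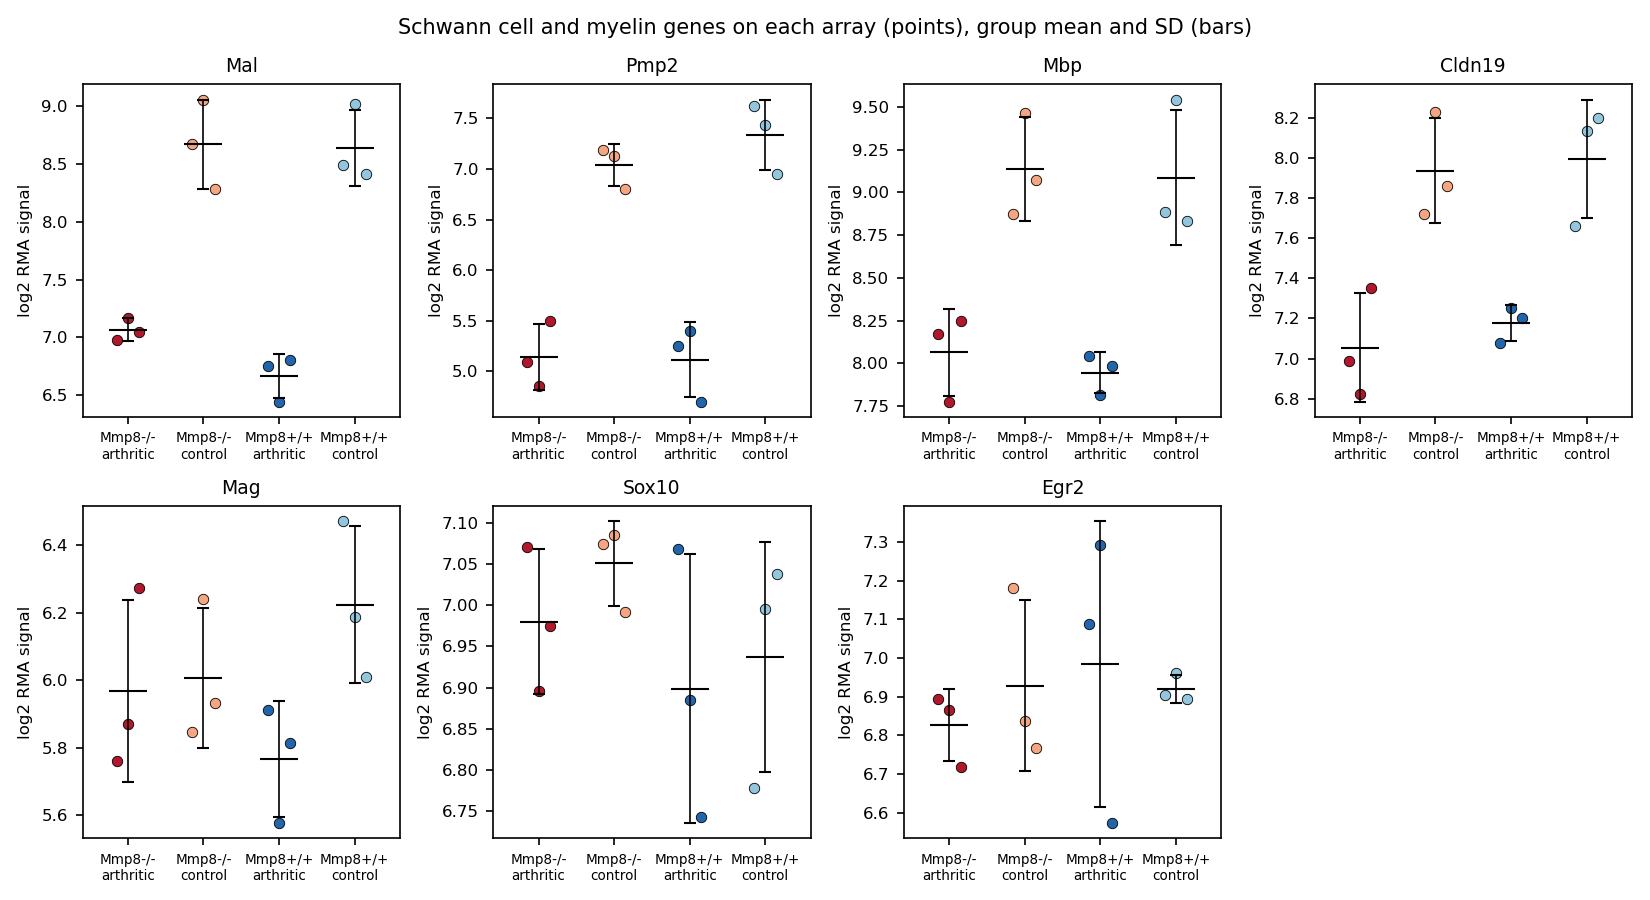
Log2 RMA signal of the 7 measured genes on each of the 12 arrays (points), with the mean and SD of each group (bars, n = 3 mice); each panel has its own axis. For Mal, Pmp2, Mbp and Cldn19 all 6 arthritic mice lie below all 6 control mice, and for Mag, Sox10 and Egr2 the points of arthritic and control mice overlap. The share of all features that separate in this way is not given.

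Mal encodes a proteolipid of lipid rafts in compact myelin, and is also made by T cells and some epithelia. Its log2 signals were 6.98, 7.17 and 7.05 in Mmp8-/- arthritic mice, against 8.67, 9.05 and 8.28 on the arrays labelled Mmp8-/- control. In Mmp8+/+ arthritic mice they were 6.75, 6.45 and 6.80, against 8.49, 9.01 and 8.41 in Mmp8+/+ control mice. The highest arthritic value, 7.17, was more than 1 log2 unit below the lowest control value, 8.28. Mal fell 3.03-fold in Mmp8-/- mice (log2 difference -1.60, SE 0.21, adjusted p = 0.000134 with limma) and 3.92-fold in Mmp8+/+ mice (-1.97, SE 0.21, adjusted p = 2.31e-05).

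Pmp2 encodes a fatty acid-binding protein that lies between the membranes of peripheral myelin. It read 5.09, 4.85 and 5.50 in Mmp8-/- arthritic mice, against 7.18, 7.12 and 6.80 on the arrays labelled Mmp8-/- control. It read 5.25, 5.40 and 4.70 in Mmp8+/+ arthritic mice, against 7.62, 7.44 and 6.95 in Mmp8+/+ control mice. No arthritic mouse exceeded 5.50 and no control mouse was below 6.80. The arthritic values lay near 4.93, the lowest mean of a tested feature. They cannot be told apart from background, so the size of the fall is uncertain. Pmp2 had the largest difference of the panel in each genotype, at -1.89 log2 units in Mmp8-/- mice (3.70-fold lower, SE 0.23, adjusted p = 7.70e-05 with limma) and -2.22 in Mmp8+/+ mice (4.66-fold lower, SE 0.23, adjusted p = 2.01e-05).

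Mbp encodes myelin basic protein, which holds the inner faces of the myelin membrane together, and other transcripts of the same gene are made in blood cells. Its signals were 8.17, 7.78 and 8.25 in Mmp8-/- arthritic mice, against 8.87, 9.47 and 9.07 on the arrays labelled Mmp8-/- control. They were 8.04, 7.81 and 7.98 in Mmp8+/+ arthritic mice, against 8.88, 9.54 and 8.83 in Mmp8+/+ control mice. The control mice spread more widely than the arthritic ones, with 1 high array in each control group, and the groups did not overlap. Mbp fell 2.10-fold in Mmp8-/- mice (log2 difference -1.07, SE 0.21, adjusted p = 0.00337 with limma) and 2.20-fold in Mmp8+/+ mice (-1.14, SE 0.21, adjusted p = 0.00206).

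Cldn19 encodes claudin-19, which forms tight junctions within the Schwann cell sheath. It read 6.99, 6.82 and 7.35 in Mmp8-/- arthritic mice, against 7.72, 8.23 and 7.86 on the arrays labelled Mmp8-/- control. It read 7.08, 7.25 and 7.20 in Mmp8+/+ arthritic mice, against 7.66, 8.14 and 8.20 in Mmp8+/+ control mice. The gap between arthritic and control arrays was the narrowest of the genes that fell, from 7.35 in Mmp8-/- arthritic mouse 3 to 7.66 in Mmp8+/+ control mouse 1. Cldn19 fell 1.84-fold in Mmp8-/- mice (log2 difference -0.88, SE 0.19, adjusted p = 0.00626 with limma) and 1.77-fold in Mmp8+/+ mice (-0.82, SE 0.19, adjusted p = 0.00892).

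Mag encodes an adhesion molecule of the Schwann cell membrane that faces the axon. Its signals were 5.76, 5.87 and 6.27 in Mmp8-/- arthritic mice, against 5.85, 6.24 and 5.93 on the arrays labelled Mmp8-/- control, and these groups overlapped. They were 5.91, 5.58 and 5.81 in Mmp8+/+ arthritic mice, against 6.47, 6.19 and 6.01 in Mmp8+/+ control mice, without overlap. The log2 difference was -0.04 in Mmp8-/- mice (95% interval -0.43 to 0.36, adjusted p = 0.895 with limma) and -0.46 in Mmp8+/+ mice (-0.85 to -0.06, adjusted p = 0.0975). With arrays weighted by quality, the Mmp8+/+ difference of Mag passed the test (-0.49, adjusted p = 0.0447). Whether it differed between genotypes was tested by the interaction, which was 0.42 (95% interval -0.14 to 0.98, adjusted p = 1).

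Sox10 read 7.07, 6.90 and 6.97 in Mmp8-/- arthritic mice, against 7.07, 7.09 and 6.99 on the arrays labelled Mmp8-/- control. It read 7.07, 6.88 and 6.74 in Mmp8+/+ arthritic mice, against 6.78, 7.00 and 7.04 in Mmp8+/+ control mice. The whole range over 12 mice was 0.34 log2 units, the narrowest of the panel, and arthritic and control mice overlapped in both genotypes. Averaged over genotypes, the log2 difference of Sox10 was -0.05 (95% interval -0.27 to 0.16, adjusted p = 0.689 with limma).

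Egr2 is also an early response gene of lymphocytes and macrophages. It read 6.89, 6.87 and 6.72 in Mmp8-/- arthritic mice, against 7.18, 6.84 and 6.77 on the arrays labelled Mmp8-/- control. It read 7.09, 7.29 and 6.57 in Mmp8+/+ arthritic mice, against 6.90, 6.96 and 6.89 in Mmp8+/+ control mice. The Mmp8+/+ arthritic mice held both the highest and the lowest value of the 12. Averaged over genotypes, its log2 difference was -0.02 (95% interval -0.30 to 0.26, adjusted p = 0.917 with limma). For Sox10 and Egr2 the averaged intervals do not reach the averaged differences of Cldn19 (-0.85, SE 0.14), Mbp (-1.11, SE 0.15), Mal (-1.78, SE 0.15) or Pmp2 (-2.06, SE 0.16). These are differences of separate features. Without a detection call, an unchanged transcript and a feature that reads mainly background cannot be told apart for Sox10 and Egr2.

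**Figure D2:**
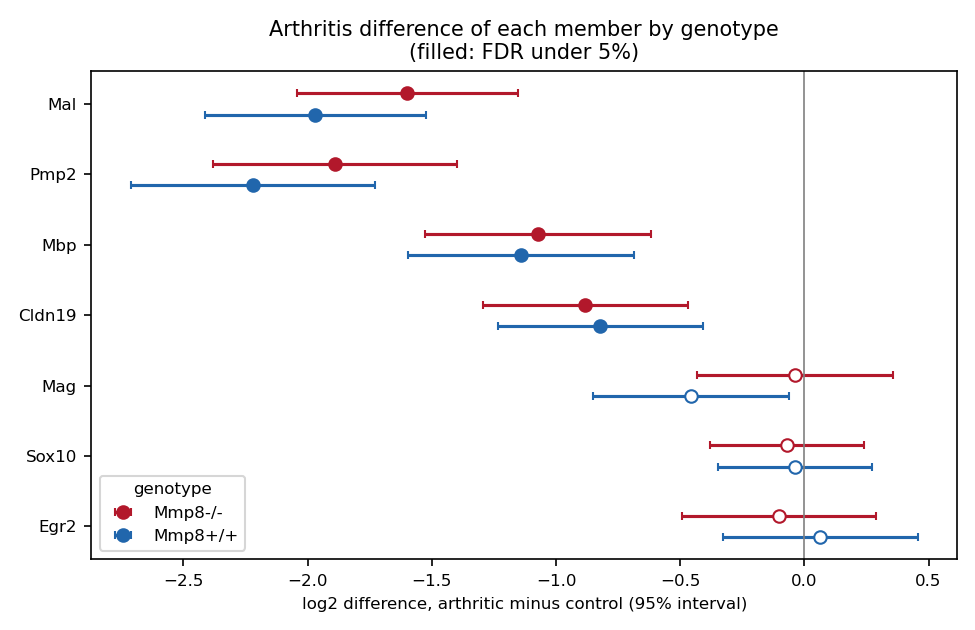
Log2 difference of arthritic minus control mice for each of the 7 genes, with its 95% interval, in Mmp8-/- mice (red, upper) and Mmp8+/+ mice (blue, lower); filled points passed an FDR of 5% in limma. Pmp2 and Mal lie between -2.22 and -1.60, Mbp and Cldn19 between -1.14 and -0.82, and the open points of Mag, Sox10 and Egr2 between -0.46 and 0.06.

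Leaving out single mice did not change these calls. With each array left out in turn, 4 members passed in Mmp8-/- mice and 4 in Mmp8+/+ mice every time. Without both arrays with Xist signal, 4 again passed in each genotype. Without these and the array labelled Mmp8-/- control 2, which leaves 1 mouse labelled Mmp8-/- control, the 4 genes kept their direction but 2 passed in Mmp8-/- mice. There Pmp2 (-1.65, adjusted p = 0.0189) and Mal (-1.21, adjusted p = 0.0372) passed with limma, in which the lone control array is assumed to vary like the other groups, and Mbp (-1.01, adjusted p = 0.116) and Cldn19 (-0.81, adjusted p = 0.143) did not. Under this setting 4 passed in Mmp8+/+ mice. With ordinary regression on the 6 arrays of a genotype, 0 members passed in Mmp8-/- mice, where 0 of all tested features passed, and 2 members, Pmp2 and Mal, passed in Mmp8+/+ mice.

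The genotypes were then compared directly, to see whether loss of Mmp8 went with a different level of these genes. In arthritic mice, 0 of 7 members differed between Mmp8-/- and Mmp8+/+ mice with limma at an FDR of 5%, where 0.00541% of all tested features did, and 0 members had an unadjusted p under 0.05, as 537 features had. In control mice 0 of 7 differed, against 0% of features, and again 0 members and 600 features had an unadjusted p under 0.05. The interaction of genotype and arthritis gave 0 of 7 members and 0% of features, with 0 members and 588 features at an unadjusted p under 0.05. The member with the largest genotype difference in arthritic mice was Mal, at 7.07 ± 0.10 in Mmp8-/- and 6.67 ± 0.19 in Mmp8+/+ arthritic mice (SD, n = 3 each). All 3 Mmp8-/- arthritic mice were above all 3 Mmp8+/+ arthritic mice, and the difference was 0.40 (95% interval -0.04 to 0.85, adjusted p = 1 with limma). Interaction values were 0.37 for Mal (SE 0.29) and 0.33 for Pmp2 (SE 0.32, 95% interval -0.36 to 1.03), and with 3 mice a group the intervals reach to both sides of 0.

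By group mean, Mal was lowest in Mmp8+/+ arthritic mice, followed by Mmp8-/- arthritic mice, and averaged 8.67 ± 0.39 on the arrays labelled Mmp8-/- control and 8.64 ± 0.33 in Mmp8+/+ control mice (SD, n = 3 each). Pmp2 averaged 5.15 ± 0.33 in Mmp8-/- arthritic mice, against 7.04 ± 0.21 on the arrays labelled Mmp8-/- control, and 5.12 ± 0.37 in Mmp8+/+ arthritic mice, against 7.34 ± 0.35 in Mmp8+/+ control mice. In both genes the step that passed the test lay between arthritic and control mice, and neighbours of the same treatment did not pass. Mbp and Cldn19 had the same single step. For Sox10 and Egr2 no comparison of groups passed.

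Other genes of the myelin sheath gave a similar picture. A list of 25 genes of myelin structure and lipid left out the 8 members. It was drawn up with earlier results of these data known, and 23 of its genes had a tested feature. Of these, 12 were lower and 1 higher in Mmp8-/- mice, 12 lower and 1 higher in Mmp8+/+ mice, with 10 lower in both, and 14 lower and 1 higher with genotypes averaged, where 22.1% of all tested features were lower and 19.8% higher. Within a genotype the shares over all tested features were 13.5% lower and 8.05% higher in Mmp8-/- mice. In Mmp8+/+ mice they were 11.5% lower and 7.30% higher. The median log2 difference over the 23 was -0.54 in Mmp8-/- mice, -0.65 in Mmp8+/+ mice and -0.51 averaged. Without both arrays with Xist signal, 8 were lower in Mmp8-/- mice and 10 in Mmp8+/+ mice. Without these and the array labelled Mmp8-/- control 2, 2 were lower in Mmp8-/- mice and 10 in Mmp8+/+ mice, and 11 averaged. The 1 gene called higher averaged over genotypes became 2 without Mmp8+/+ arthritic mouse 3.

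The largest averaged fall in that list was in Drp2, which binds periaxin beneath the Schwann cell membrane. It read 6.30, 6.10 and 7.05 in Mmp8-/- arthritic mice, against 8.53, 8.84 and 7.75 on the arrays labelled Mmp8-/- control. It read 6.28, 6.41 and 6.05 in Mmp8+/+ arthritic mice, against 8.19, 8.88 and 7.95 in Mmp8+/+ control mice. Arthritic and control mice did not overlap, and the averaged log2 difference was -1.99 (SE 0.21, adjusted p = 7.39e-06 with limma). Ugt8a, the enzyme that makes the myelin lipid galactocerebroside, fell by 1.92 (SE 0.21), and Cnp, a phosphodiesterase of non-compacted myelin, by 1.27 (SE 0.15). Pmp22, a protein of compact myelin that fibroblasts also make, fell by 1.38 (SE 0.23), and Pllp, the myelin proteolipid plasmolipin, by 1.26 (SE 0.16). Ncmap, a protein of non-compact myelin, fell by 0.64 averaged (SE 0.12, adjusted p = 0.000742) and by 0.83 in Mmp8+/+ mice (adjusted p = 0.00289), and its difference in Mmp8-/- mice was -0.44 (adjusted p = 0.0658). Tppp3, Cd9 and Ndrg1 also fell, by 1.83, 0.95 and 1.02 averaged, and all 3 are made by many cells outside nerves.

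Some genes of the sheath did not follow. Gjb1, the gap junction protein connexin-32 of myelinating Schwann cells, had an averaged log2 difference of 0.04 (95% interval -0.24 to 0.32, adjusted p = 0.832). Nfasc, the neurofascin gene whose products sit at and beside the node of Ranvier, rose by 0.82 (SE 0.12, adjusted p = 0.00017) and was the 1 member of the list that was higher in each genotype. It read 6.93, 7.34 and 7.32 in Mmp8-/- arthritic mice, against 6.61, 6.76 and 6.31 on the arrays labelled Mmp8-/- control. It read 7.44, 7.60 and 7.15 in Mmp8+/+ arthritic mice, against 6.37, 6.45 and 6.33 in Mmp8+/+ control mice. Its rise in Mmp8-/- mice did not pass when Mmp8-/- arthritic mouse 2 or 3, or the array labelled Mmp8-/- control 1 or 3, was left out. Gldn, the node protein gliomedin that binds neurofascin, fell by 0.83 (SE 0.14).

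**Figure D3:**
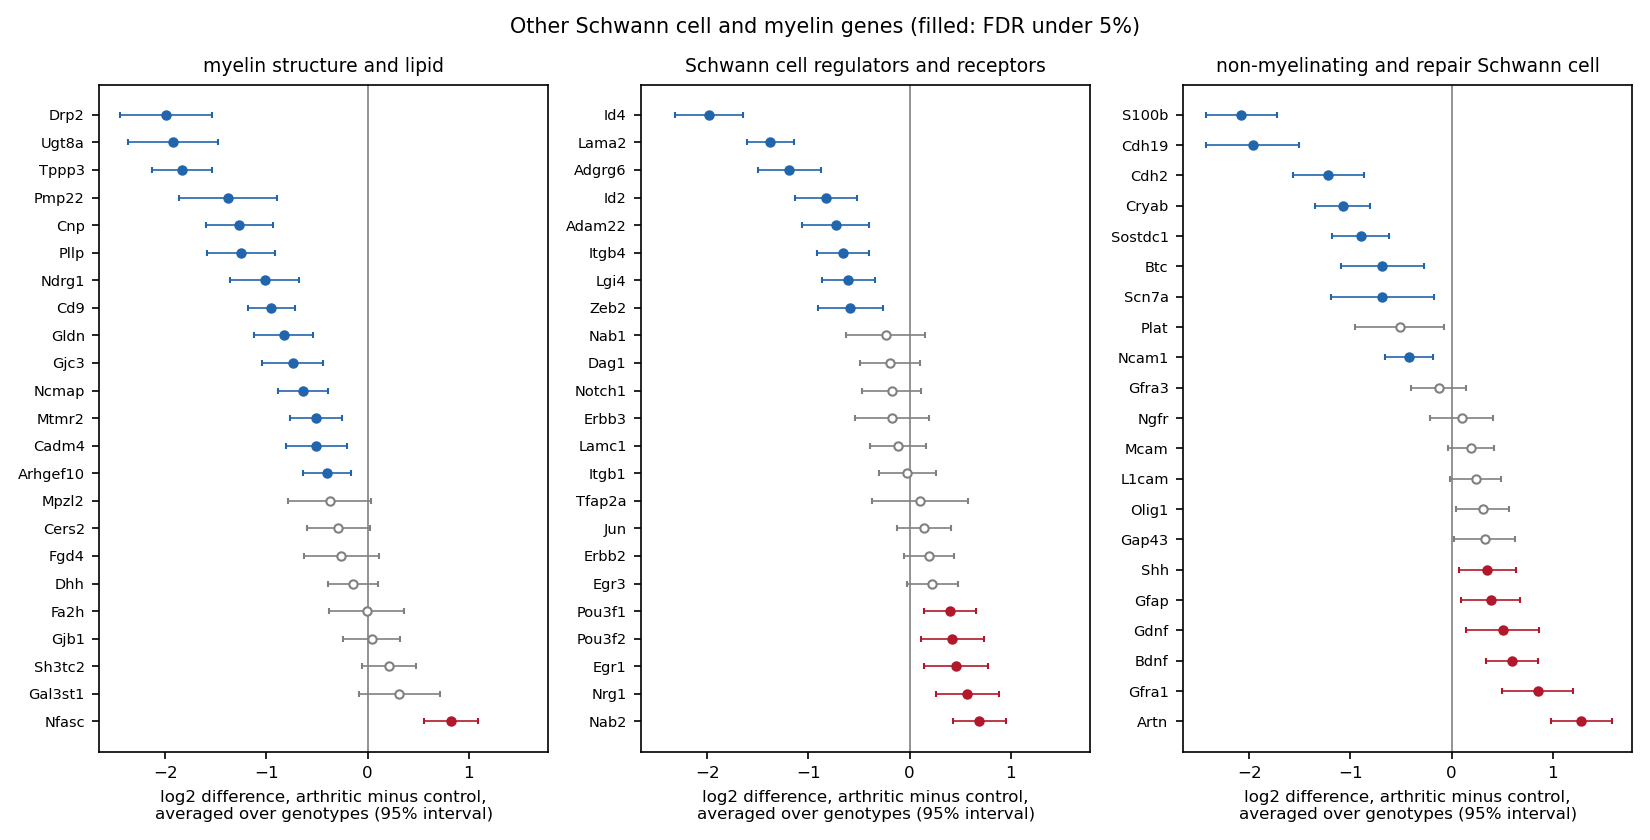
Log2 difference of arthritic minus control mice, averaged over genotypes, with 95% intervals, for the tested genes of 3 lists that leave out the 8 members; filled points passed an FDR of 5% (blue lower, red higher). Of 23 genes of myelin structure and lipid 14 were lower and 1 higher, of 23 regulators and receptors 8 lower and 5 higher, and of 21 genes of non-myelinating and repair Schwann cells 8 lower and 6 higher.

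Regulators and receptors of the Schwann lineage moved in both directions. Of 25 listed genes 23 were tested, and 8 were lower and 5 higher averaged over genotypes, with a median of -0.18. Over all tested features 22.1% were lower and 19.8% higher, so that the share of the list that was higher is close to that of all features. In Mmp8-/- mice 7 were lower and 2 higher, and in Mmp8+/+ mice 7 lower and 1 higher, 6 of them lower in both. The shares over all tested features were 13.5% lower and 8.05% higher in Mmp8-/- mice, and 11.5% lower and 7.30% higher in Mmp8+/+ mice. The shares of the list that were higher were thus close to or below these. With ordinary regression on the 6 arrays of a genotype, 0 were lower in Mmp8-/- mice and 3 in Mmp8+/+ mice. The 7 lower in Mmp8-/- mice became 4 without Mmp8-/- arthritic mouse 1, without the array labelled Mmp8-/- control 1 or without the array labelled Mmp8-/- control 2, and 2 without the arrays with Xist and Mmp8 signal, and the 7 lower in Mmp8+/+ mice became 4 without Mmp8+/+ arthritic mouse 2. The 2 higher in Mmp8-/- mice became 0 or 1 without either of these control arrays or without Mmp8-/- arthritic mouse 1 or 2, and the 1 higher in Mmp8+/+ mice became 2 without Mmp8+/+ control mouse 3. Id4, an inhibitor of basic helix-loop-helix factors that is also made outside nerves, fell most (-1.99, SE 0.16, adjusted p = 4.46e-07). Adgrg6, the adhesion receptor that Schwann cells need to start myelination, fell by 1.19 (SE 0.15), and Lama2, a laminin chain of the Schwann cell and muscle basement membrane, by 1.38 (SE 0.11). The secreted myelination factor Lgi4 fell by 0.61 (SE 0.12) and its receptor Adam22 by 0.73 (SE 0.16).

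The partners of EGR2 and of SOX10 are in the same list. Nab2, a corepressor of EGR proteins, rose by 0.69 averaged (SE 0.12, adjusted p = 0.000577), and Nab1, its relative, had a difference of -0.23 (95% interval -0.62 to 0.16, adjusted p = 0.313). Pou3f1, which acts before EGR2 in the myelination programme, was higher by 0.40 averaged (adjusted p = 0.0184) but passed in neither genotype alone. Nrg1, the axonal growth factor that drives myelination, rose by 0.57 averaged (SE 0.15, adjusted p = 0.00719), whereas its receptor Erbb3 had a difference of -0.18 (95% interval -0.54 to 0.19, adjusted p = 0.42). Jun, which is induced in Schwann cells after nerve injury, had a difference of 0.14 (95% interval -0.12 to 0.41, adjusted p = 0.361). The 5 genes called higher averaged over genotypes became 3 without Mmp8+/+ arthritic mouse 1, 2 without both arrays with Xist signal, and 1 without these and the array labelled Mmp8-/- control 2, while the 8 called lower became 5 without all 3 of these control arrays.

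Among genes of non-myelinating and repair Schwann cells, 21 of 22 were tested, and 8 were lower and 6 higher averaged over genotypes, with a median of 0.10, against the same 22.1% lower and 19.8% higher over all features. In Mmp8-/- mice 6 were lower and 3 higher, and in Mmp8+/+ mice 5 lower and 3 higher, with 5 lower and 3 higher in both. The shares over all features were 13.5% lower and 8.05% higher in Mmp8-/- mice, and 11.5% lower and 7.30% higher in Mmp8+/+ mice. With ordinary regression on the 6 arrays of a genotype, 0 were lower in Mmp8-/- mice and 1 in Mmp8+/+ mice. S100b, a calcium-binding protein of Schwann cells that adipocytes and cartilage cells also make, read 6.31, 6.10 and 7.03 in Mmp8-/- arthritic mice, against 8.72, 8.13 and 8.52 on the arrays labelled Mmp8-/- control. It read 6.52, 6.47 and 6.25 in Mmp8+/+ arthritic mice, against 8.86, 8.52 and 8.39 in Mmp8+/+ control mice. The 2 sets did not overlap, and S100b had the largest fall of the list (-2.08, SE 0.16, adjusted p = 4.19e-07). Cdh19, a cadherin of the Schwann lineage, read 4.08, 4.04 and 4.93 in Mmp8-/- arthritic mice, against 6.61, 6.28 and 5.75 on the arrays labelled Mmp8-/- control. It read 4.78, 4.21 and 3.88 in Mmp8+/+ arthritic mice, against 6.86, 6.19 and 6.03 in Mmp8+/+ control mice, and its averaged difference was -1.97 (SE 0.22, adjusted p = 8.89e-06). The arthritic Cdh19 values did not exceed 4.93, the lowest mean of a tested feature. They cannot be told apart from background, so the size of this fall is uncertain. Scn7a, a sodium channel of non-myelinating Schwann cells, and the adhesion molecule Ncam1 fell by 0.68 (adjusted p = 0.0332) and 0.42 (adjusted p = 0.00889) averaged.

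The 6 genes of that list that rose were growth factors, a receptor, a morphogen and a filament protein. Artn, the neurotrophic factor artemin, read 7.29, 7.50 and 7.45 in Mmp8-/- arthritic mice, against 5.43, 6.26 and 6.02 on the arrays labelled Mmp8-/- control. It read 7.54, 7.08 and 7.14 in Mmp8+/+ arthritic mice, against 6.17, 6.13 and 6.30 in Mmp8+/+ control mice, again without overlap, and rose by 1.28 averaged (SE 0.14, adjusted p = 9.22e-06). Gfra1, a receptor subunit for GDNF, rose by 0.85 (adjusted p = 0.00107), Bdnf by 0.60 (adjusted p = 0.00139), Gdnf by 0.50 (adjusted p = 0.0285), Gfap by 0.39 (adjusted p = 0.0332) and Shh by 0.36 (adjusted p = 0.041). Artn, Gfra1 and Bdnf also passed in each genotype alone, and Gdnf, Gfap and Shh in neither. Ngfr, the low-affinity neurotrophin receptor of repair Schwann cells, had a difference of 0.10 (95% interval -0.21 to 0.41, adjusted p = 0.599). All of these growth factors can be made by cells other than Schwann cells, and the array does not say which cells held the transcript. Without both arrays with Xist signal the averaged counts of the list were 7 lower and 4 higher, and 5 lower and 3 higher without these and the array labelled Mmp8-/- control 2. The 6 higher became 3 without Mmp8-/- arthritic mouse 2 or without Mmp8+/+ control mouse 2, and in Mmp8-/- mice the 3 higher became 1 without the array labelled Mmp8-/- control 1 or 2.

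Lists for axons and for related glia and pigment cells were read beside the members. Of 10 tested genes of axons and neurons 1 was lower and 1 higher averaged over genotypes, with a median of 0.28, where 22.1% of all tested features were lower and 19.8% higher, so that neither count of this list exceeds the share over all features. The gene that was lower was Uchl1 (-0.82, SE 0.17, adjusted p = 0.00165 with limma), which was also lower in each genotype alone. The gene that was higher was Th (0.47, SE 0.13, adjusted p = 0.00904 with limma). The neurofilament Nefl had a difference of 0.35 and peripherin, Prph, of 0.24, and neither passed. The mean over the 14 listed genes with a feature ran from 5.55 to 5.95 across the arrays. Low values cannot be told apart from background, so these counts do not say whether axons changed. Of 9 tested oligodendrocyte genes 0 were lower and 4 higher (median 0.32), led by Mog (0.66, adjusted p = 0.00343 with limma). The mean over the 10 listed genes with a feature ran from 5.57 to 6.27 across the arrays, and which cells held these transcripts was not tested. Of 7 tested melanocyte genes, a lineage that shares Sox10, 1 was lower and 1 higher (median 0.16).

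Other tissues of the ankle moved with arthritis in the same direction as the 4 members that fell. Over all tested features 22.1% were lower averaged over genotypes, 13.5% in Mmp8-/- mice and 11.5% in Mmp8+/+ mice. All 9 tested adipocyte genes were lower in each genotype and averaged (median averaged -2.18), and the mean of the list ran from 7.30 to 7.96 in Mmp8-/- arthritic mice, against 9.67 to 9.87 on the arrays labelled Mmp8-/- control, and from 7.45 to 7.85 in Mmp8+/+ arthritic mice, against 9.12 to 9.94 in Mmp8+/+ control mice. Of 10 skeletal muscle genes 9 were lower averaged (median -1.61), and the mean ran from 9.21 to 10.61 in Mmp8-/- arthritic mice, against 11.10 to 11.50 on the arrays labelled Mmp8-/- control, and from 9.08 to 10.93 in Mmp8+/+ arthritic mice, against 11.08 to 12.13 in Mmp8+/+ control mice. The mean of the 7 members ran from 6.61 to 6.87 in Mmp8-/- arthritic mice, against 7.39 to 7.72 on the arrays labelled Mmp8-/- control, and from 6.55 to 6.74 in Mmp8+/+ arthritic mice, against 7.48 to 7.75 in Mmp8+/+ control mice. For all 3 the arthritic and control arrays were separate. The part of fat and muscle content in the falls of the members was not tested.

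Mal, Mbp and Egr2 are also read in blood and skin cells. Averaged over genotypes, 22.1% of all tested features were lower and 19.8% higher. Of 9 tested T cell genes 4 were lower and 1 higher averaged (median -0.37), and the list mean ran from 6.36 to 6.41 in Mmp8-/- arthritic mice, against 6.72 to 6.85 on the arrays labelled Mmp8-/- control, and from 6.37 to 6.47 in Mmp8+/+ arthritic mice, against 6.59 to 7.13 in Mmp8+/+ control mice. Of 9 keratinocyte genes 2 were lower and 0 higher in Mmp8-/- mice (median -0.80) and 0 lower and 0 higher in Mmp8+/+ mice (median 0.50). Over all tested features 13.5% were lower in Mmp8-/- mice and 11.5% in Mmp8+/+ mice. The keratinocyte mean ran from 7.31 to 7.56 in Mmp8-/- arthritic mice, against 7.47 to 8.92 on the arrays labelled Mmp8-/- control, and from 8.30 to 9.13 in Mmp8+/+ arthritic mice, against 7.65 to 8.82 in Mmp8+/+ control mice, so that the arthritic mice of the 2 genotypes did not overlap. Averaged over genotypes, of 10 macrophage genes 2 were lower and 7 higher (median 0.40) and of 10 neutrophil genes 4 lower and 2 higher (median -0.39). Of 10 endothelial genes 5 were lower and 1 higher (median -0.23), and of 9 genes of cartilage, bone and tendon 4 lower and 2 higher (median -0.31). The share higher among neutrophil genes and among those of cartilage, bone and tendon is close to that of all features. The part of these cells in the signals of the members was not tested.

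**Figure D4:**
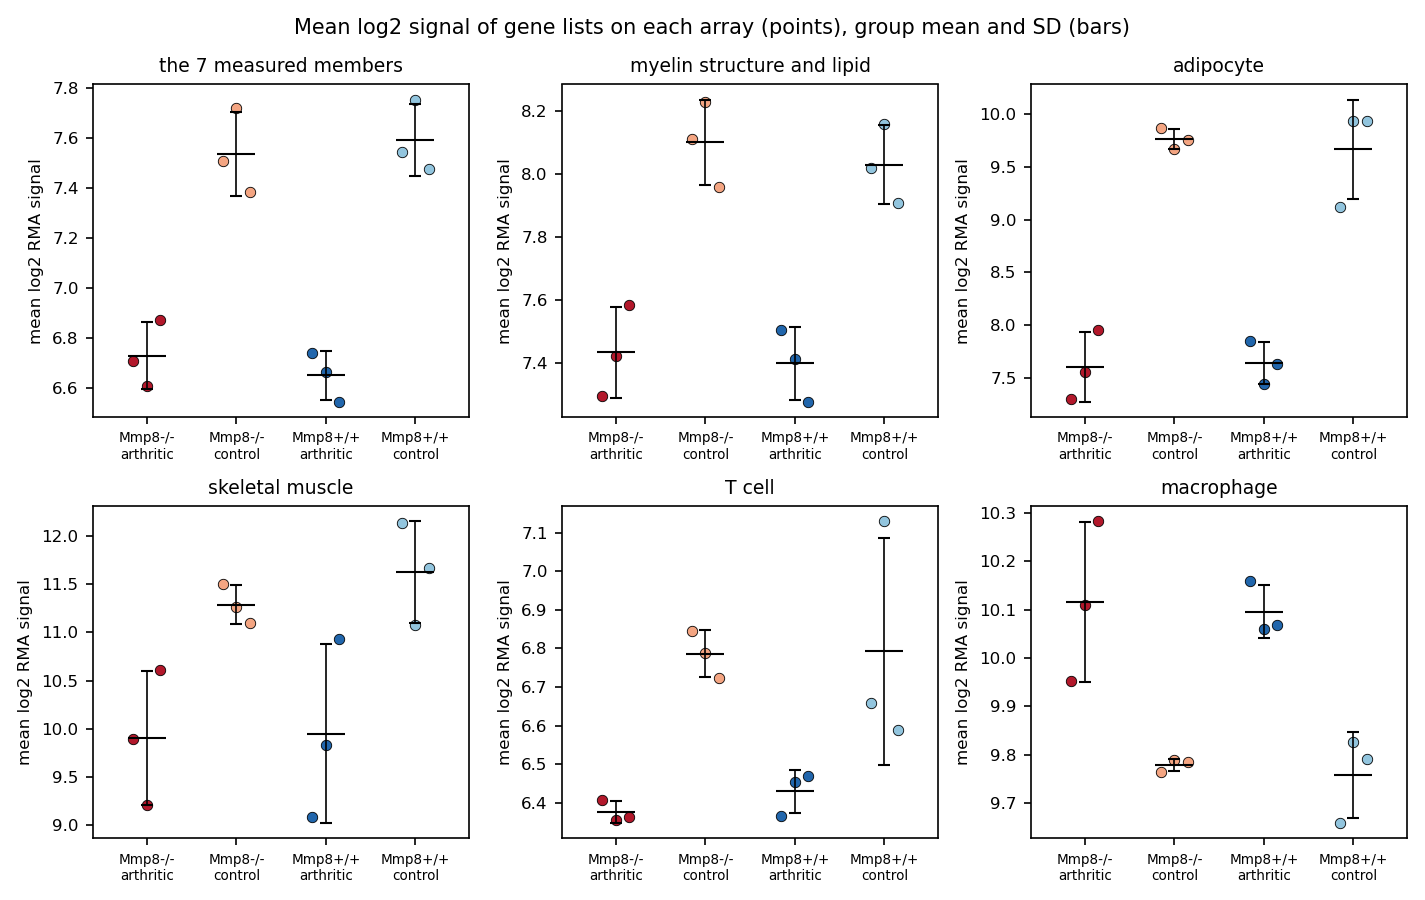
Mean log2 RMA signal of the genes of 6 sets on each of the 12 arrays (points), with the mean and SD of each group (bars, n = 3 mice); each panel has its own axis. The 7 members, other myelin genes, adipocyte, skeletal muscle and T cell genes lie lower on all 6 arthritic arrays than on all 6 control arrays, and macrophage genes lie higher.

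How the members varied among mice of 1 group was described by the correlation of their deviations from the group means over the 12 arrays, which share normalization and dissection and leave 8 degrees of freedom. Over the 21 pairs, Pearson r ran from -0.41 for Mag and Egr2 to 0.65 for Mbp and Mal, with a median of 0.27, and 16 pairs were above 0. Mbp also varied with Cldn19 (r = 0.60), while Mal and Cldn19 had an r of 0.28. Mmp8-/- arthritic mouse 3 had the highest Mbp, Pmp2, Mag and Cldn19 of its group and also the highest Drp2, S100b, Cdh19 and Adipoq, whereas Mal was highest in mouse 2 of that group. With the mean of the myelin list, the deviations of the genes that fell had an r of 0.71 for Pmp2, 0.62 for Mal, 0.54 for Mbp and 0.34 for Cldn19, and those of the others 0.60 for Mag, 0.28 for Sox10 and 0.27 for Egr2. With the mean of the adipocyte list, r was 0.55 for Cldn19, 0.28 for Mbp, 0.24 for Mal and -0.12 for Pmp2 among the genes that fell, and 0.49 for Sox10, 0.0034 for Mag and -0.08 for Egr2 among the others. For the T cell list r was 0.63 for Mbp, 0.62 for Mal, 0.20 for Pmp2 and 0.17 for Cldn19. For the keratinocyte list it was 0.59 for Mal, 0.48 for Cldn19, 0.44 for Mbp and 0.32 for Pmp2. Likeness to a list mean was thus not limited to the myelin list.

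The tested genes whose deviations were most like each member's were looked up among the other 18494 features. They were Kif5a (r = 0.97), Pls1 (0.93) and D3Ertd751e (0.92) for Mbp, and Pofut1 (0.96), Gulp1 (0.95) and Mrgprh (0.94) for Mal. For Pmp2 they were Brf1 (0.97), Prep (0.94) and Dnajc28 (0.94), and for Cldn19 Mief1 (0.93), Fam174b (0.91) and Mif4gd (0.91). For Mag they were Bap1 (0.93), Ints10 (0.92) and Scrn3 (0.92), for Sox10 Tafa4 (0.94), Lad1 (0.94) and Nckap5 (0.94), and for Egr2 Rab4a (0.96), Snx29 (0.94) and H1f7 (0.93). No member was among the 3 nearest of another, and each of these values is among the highest of 18494 over 12 arrays.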

How the data were processed

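RNA of the ankle joint was hybridised to 1 Affymetrix Mouse Gene 1.0 ST array per mouse. The authors deposited log2 values from RMA, that is, after background correction, quantile normalization and summary over probes, and the submitters' processing notes name RMA and Partek. The table holds 28853 features, 21789 of them annotated with 1 symbol, 1621 with several and 5443 with none. Tested were the 18495 features with 1 symbol and the highest mean signal (lowest mean 4.93), the number the study kept after its own filter. Members and gene lists were chosen with earlier results of these data known. Of 186 list entries, 178 had a feature.

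Models with 4 group means over 12 arrays were fitted by limma 3.58.1 under R 4.3.3 (lmFit, eBayes, 8 residual degrees of freedom, no covariate), 6 comparisons in all, two-sided, with Benjamini-Hochberg adjustment over all 18495 features. Replicates are separate mice, numbered in the order of submission, and their number limits the precision. Errors are SD for means and SE for differences. The procedure was tested on simulated data. The text names all members, fixed genes of the lists, the largest fall and rise of the lists described and the 3 nearest genes of each member, and other list genes were named after their values were seen. There were 21 alternatives, 12 of which leave out 1 array.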

Additional observations from a re-analysis of the deposited data

How the results depend on the processing

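The 4 members that fell kept their direction under every alternative run. In Mmp8-/- mice 4 members passed with each array left out (4 to 4), 0 with ordinary regression on the 6 arrays compared (where 0 of all features passed) and 2 without both arrays with Xist signal and the Mmp8-/- control array with Mmp8 signal. In Mmp8+/+ mice 4 to 4 passed with each array left out and 2 with ordinary regression on the 6 arrays compared, where Mbp (adjusted p = 0.0814) and Cldn19 (adjusted p = 0.0846) were lost. Averaged over genotypes, 4 passed under all. Across these comparisons, 236 of 244 alternative values of members that passed and 166 of 183 of members that did not stayed on their side with their sign. Of genotype and interaction values, 392 of 427 did, and 0 members passed under any.

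Counts over all features moved more. In Mmp8-/- mice 3978 features passed, against 2648 with ordinary regression over 12 arrays, 1702 without both arrays with Xist signal, 471 without these and the array with Mmp8 signal, and 1837 to 4098 with each array left out. In Mmp8+/+ mice 3468 passed, against 829 with ordinary regression on the arrays compared, 1916 and 1707 without the same arrays, and 2077 to 4243 with each array left out. Averaged, 7743 passed, against 4810 and 2678, and 6105 to 7949. Between arthritic genotypes 1 passed, against 3 with limma on the compared arrays, 2 without the 3 arrays, 0 with either ordinary regression, array weights or without the Xist arrays, and 0 to 2 with each array left out. Between control genotypes 0 passed, against 1 without the 3 arrays, and 0 to 1 with each array left out.

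Signs turned only for differences that passed in no setting. With array weights Mag in Mmp8-/- mice was 0.022, Cldn19 between control genotypes 0.022 and the Mbp interaction -0.019. Without the Xist arrays Egr2 was 0.024 in Mmp8-/- mice and 0.040 averaged, between control genotypes Egr2 was -0.13 and Mal -0.047, and interactions were 0.059 for Sox10 and 0.0001 for Cldn19. Without the 3 arrays Mag was 0.038 and Egr2 0.059 in Mmp8-/- mice, Egr2 averaged 0.057, control genotype differences were -0.12 for Mbp, -0.025 for Sox10, -0.16 for Egr2 and -0.43 for Mal, and interactions were 0.11 for Sox10, 0.0033 for Egr2 and 0.18 for Cldn19. The cause was not tested. With each array left out, values ranged in Mmp8-/- mice from -0.19 to 0.080 for Mag and from -0.18 to 0.024 for Egr2, in Mmp8+/+ mice from -0.12 to 0.039 for Sox10 and from -0.090 to 0.27 for Egr2, and averaged from -0.096 to 0.083 for Egr2. Between arthritic genotypes Pmp2 ranged from -0.18 to 0.18. Between control genotypes the ranges were -0.11 to 0.28 for Mbp, -0.12 to 0.089 for Egr2, -0.23 to 0.048 for Cldn19 and -0.16 to 0.22 for Mal. Interactions ranged from -0.16 to 0.23 for Mbp, -0.11 to 0.053 for Sox10 and -0.21 to 0.11 for Cldn19. No paired analysis was possible because the labels carry no replicate numbers. A second feature per gene could not be tried, since each member has 1.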
